A study of Mus musculus with 10 samples.

Results

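The 10 genes described here are mouse genes that steroid hormone receptors are known to turn on: Fkbp5, Tsc22d3, Sgk1, Zbtb16, Steap4, Klf9, Pdk4, Cdkn1a, Mt1 and Mt2. They were taken by symbol from a table of 56884 gene identifiers, and all 10 had enough counts to be among the 17622 genes tested. The study asked how the androgen 5α-dihydrotestosterone (DHT) alters Tau pathology in the female brain, and hippocampal RNA was sequenced from 10 ovary-intact female P301S mice. These mice, also called PS19 or hTau, carry human Tau with the P301S mutation under the mouse Prnp promoter, so both groups expressed the transgene. From 6 months of age, 5 mice carried a subcutaneous SILASTIC implant with 10 mm of DHT powder and 5 carried a void implant without DHT. Treatment lasted 12 weeks, and tissue was taken at 9 to 9.5 months with 1 library per mouse.

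Steroid hormone receptors of the glucocorticoid receptor's family are transcription factors that wait in the cytoplasm bound to heat shock chaperones, enter the nucleus with their hormone and bind nearly the same DNA element. Many genes therefore answer to more than one of these hormones, and Fkbp5, Tsc22d3, Sgk1, Zbtb16 and Klf9 are classical readouts of glucocorticoid in the brain and of androgen in other tissues. DHT cannot be turned into oestrogen, so it acts as an androgen only.

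Of the 10 genes, 1 differed between the groups at a Benjamini-Hochberg adjusted p under 0.05 from edgeR's quasi-likelihood test, against 5.48% of all genes tested (5.22% higher and 0.261% lower with DHT). Genes past this threshold are referred to as called. That gene was Cdkn1a, the cell cycle inhibitor p21, which rose 1.79-fold. In bulk tissue, more cells of a type and more RNA per cell cannot be told apart. None of the 10 passed when a log2 ratio beyond 1 was asked for as well, which 2.19% of all genes did (2.17% higher and 0.0227% lower with DHT). At an unadjusted p under 0.05, 3 of the 10 passed (17.4% of all genes, 13.1% higher and 4.22% lower), with Cdkn1a and Steap4 higher and Tsc22d3 lower. DESeq2 called 2 of the 10 at an adjusted p under 0.05, Cdkn1a and Steap4. The groups did not overlap for 1 of the 10 genes, Cdkn1a, against 6.27% of all genes (5.39% with all DHT-treated mice above and 0.88% with all below). The median log2 ratio of DHT to void was 0.22 over the 10 genes and 0.0094 over all genes tested. It was positive for 7 of the 10 and for 52.4% of all genes.

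**Figure D1:**
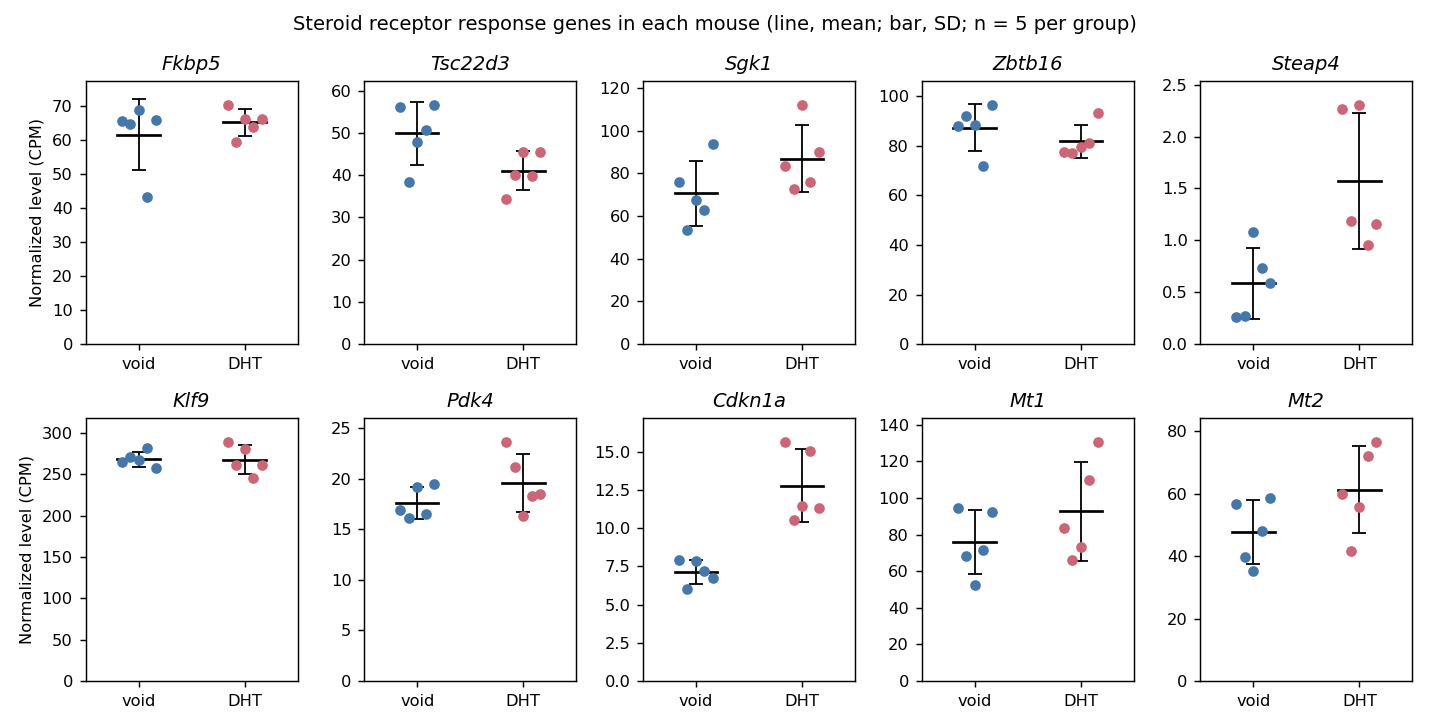
Level in CPM (read counts scaled for library size, y axis from 0) of each of the 10 genes in the 5 void-treated (blue) and 5 DHT-treated (red) mice, 1 point per mouse, with the mean and SD. All 5 DHT-treated mice stand above all 5 void-treated mice for Cdkn1a, and the groups overlap in the other 9 panels.

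Libraries held 27188854 to 47113661 counts. Levels are given in CPM, read counts scaled to a common library size with TMM factors, and are compared between mice and not between genes, since gene length is not taken out. The hippocampal label was matched by neuronal genes such as Prox1, Neurod6 and Camk2a, at means of 166, 226 and 3143 CPM with void. Of all genes tested, 5.22% were called higher and 52.4% had a positive log2 ratio. Choroid plexus markers were higher in the DHT-treated mice. The 12 listed genes summed to between 359 and 3267 CPM with void and between 3920 and 5756 CPM with DHT. All 12 had a positive log2 ratio, and 5 were called. The 10 listed microglial markers summed to between 465 and 568 CPM with void and between 682 and 1059 CPM with DHT, and 7 were called higher. None of these markers was at 0 in any library. Ttr, the transport protein that choroid plexus makes in bulk, ranged from 62.5 to 1335 CPM with void and from 1289 to 1728 CPM with DHT, and void replicate 9 was the one void-treated mouse within the DHT range. The libraries of void-treated mice carry numbers from 4 to 11 in their sequencing labels and those of DHT-treated mice numbers from 18 to 23, so that order and treatment cannot be told apart.

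Fkbp5 (ENSMUSG00000024222.18) encodes a chaperone partner that lowers the hormone affinity of the glucocorticoid receptor and is itself switched on by it. Void replicates 10, 11, 4, 5 and 9 had 65.8, 64.8, 68.9, 43.2 and 66.0 CPM. DHT replicates 1, 2, 3, 5 and 6 had 70.4, 59.7, 66.4, 64.0 and 66.3 CPM. The groups overlapped almost fully, and void replicate 5 alone was low. The log2 ratio was 0.08 (adjusted p = 0.790, standard error 0.11, edgeR's quasi-likelihood test), and the 95% interval of the ratio of DHT to void was 0.897 to 1.25. Without void replicate 5 the log2 ratio was -0.022.

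Tsc22d3 (ENSMUSG00000031431.14) encodes GILZ, a leucine zipper protein through which glucocorticoid dampens inflammation. Its levels were 56.2, 38.3, 47.8, 50.7 and 56.6 CPM in void replicates 10, 11, 4, 5 and 9. In DHT replicates 1, 2, 3, 5 and 6 they were 34.5, 40.1, 45.5, 39.7 and 45.5 CPM. Of the void-treated mice, 4 were above all DHT-treated mice, while void replicate 11 lay among them. Between groups, the log2 ratio was -0.28 (standard error 0.11, 95% interval -0.52 to -0.040), and the adjusted p was 0.200 (0.0260 before adjustment, edgeR's quasi-likelihood test). Without void replicate 11 it was -0.39 (adjusted p = 0.0517), the lowest of the fits that left out 1 mouse.

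Sgk1 (ENSMUSG00000019970.16) encodes a kinase that regulates ion channels and transporters and is induced by glucocorticoid and mineralocorticoid. Among the RefSeq promoter windows of the 10 genes (250 bases before each annotated start, GRCm38.p6), a window of Sgk1 was the only one with the full palindrome that dimers of these receptors bind. It is shown for that reason, with the palindrome (AGAACA, any 3 bases, TGTTCT; the same on either strand) in capitals. The window is chr10:21993640-21993889 on the + strand, and the match begins 189 bases before that start.
Sgk1: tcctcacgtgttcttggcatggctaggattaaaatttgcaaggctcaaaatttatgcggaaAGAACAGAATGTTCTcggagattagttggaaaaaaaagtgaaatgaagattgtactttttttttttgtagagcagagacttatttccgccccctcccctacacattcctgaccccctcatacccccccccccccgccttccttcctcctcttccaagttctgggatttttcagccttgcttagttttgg
The palindrome was found in 3 of 32851 mouse promoter windows of this length, 0.00913%. Windows were at hand for 9 of the 10 genes and numbered 17, since Sgk1, Cdkn1a and Tsc22d3 have several starts. The absence of these letters in the other windows says nothing of elements elsewhere, and RNA counts do not show which start was used.

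Sgk1 levels were 76.2, 53.7, 67.6, 62.6 and 93.7 CPM in void replicates 10, 11, 4, 5 and 9 and 83.3, 72.7, 112, 76.1 and 90.0 CPM in DHT replicates 1, 2, 3, 5 and 6. The groups overlapped, with void replicate 9 above all DHT-treated mice but replicate 3. The log2 ratio was 0.30 (standard error 0.15, adjusted p = 0.351, edgeR's quasi-likelihood test), with a 95% interval of -0.030 to 0.62.

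Zbtb16 (ENSMUSG00000066687.6) encodes the zinc finger repressor PLZF, a strong target of glucocorticoid, androgen and progestin. Void replicates 10, 11, 4, 5 and 9 were at 88.0, 92.0, 88.3, 71.6 and 96.4 CPM. DHT replicates 1, 2, 3, 5 and 6 were at 77.5, 77.2, 79.4, 81.0 and 93.2 CPM. Most DHT-treated mice were below most void-treated mice, but void replicate 5 was the lowest and DHT replicate 6 the second highest of all 10. Between groups, the log2 ratio was -0.10 (standard error 0.08, adjusted p = 0.635, edgeR's quasi-likelihood test), and the 95% interval of the ratio was 0.826 to 1.06.

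Klf9 (ENSMUSG00000033863.3) encodes a Krüppel-like transcription factor induced by glucocorticoid and thyroid hormone in neurons. It varied little from mouse to mouse: it ranged from 257 to 282 CPM with void (median 267) and from 246 to 290 CPM with DHT (median 261). The pooled within-group SD of its log2 CPM, 0.0752, was at percentile 7.91 of all genes tested. Its log2 ratio was -0.0041 (standard error 0.055, adjusted p = 0.986, edgeR's quasi-likelihood test), and the 95% interval of the ratio was 0.917 to 1.08. Its sign turned positive when libraries were scaled by their totals only.

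Steap4 (ENSMUSG00000012428.10) encodes a metalloreductase of iron and copper, found as an androgen-responsive gene in prostate. It had few counts, 7 to 51 per library with void and 32 to 110 with DHT. Its levels were 0.258, 0.270, 1.08, 0.735 and 0.589 CPM in void replicates 10, 11, 4, 5 and 9. They were 2.27, 1.18, 2.30, 0.958 and 1.16 CPM in DHT replicates 1, 2, 3, 5 and 6. The groups overlapped through a single pair of mice, void replicate 4 and DHT replicate 5. The log2 ratio was 1.38 (standard error 0.39, 95% interval 0.53 to 2.24), the largest of the 10 in size, and its adjusted p was 0.0658 (edgeR's quasi-likelihood test). It was 0.0126 with DESeq2, 0.0460 without the filter on low counts and 0.0423 without void replicate 4, and over all fits that left out 1 mouse it ranged from 0.0423 to 0.188. With the choroid plexus markers as a covariate the log2 ratio was 0.71 (adjusted p = 0.910).

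Steap2, a close relative with the same reductase activity, rose. It was at 18.2, 14.7, 25.6, 20.5 and 30.8 CPM in void replicates 10, 11, 4, 5 and 9 and at 62.8, 51.2, 64.9, 50.3 and 43.7 CPM in DHT replicates 1, 2, 3, 5 and 6, with no overlap. Its rise was 1.31 on the log2 scale (edgeR's quasi-likelihood test, standard error 0.18, adjusted p = 0.00670). Its log2 ratio was 0.73 with the choroid plexus covariate (adjusted p = 0.560). Steap1 had a log2 ratio of 2.08 that was not called (adjusted p = 0.121), but was called without void replicate 9, the void-treated mouse with the most choroid plexus RNA (3.27, adjusted p = 0.00591). Steap3 was at 6.31 CPM with void and 6.72 CPM with DHT (adjusted p = 0.780).

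Pdk4 (ENSMUSG00000019577.7) encodes a kinase that closes pyruvate dehydrogenase and so spares glucose. It ranged from 16.1 to 19.5 CPM with void (median 16.9) and from 16.4 to 23.7 CPM with DHT (median 18.5). The groups overlapped, and the log2 ratio was 0.15 (standard error 0.10, adjusted p = 0.532, edgeR's quasi-likelihood test). Its relatives Pdk1, Pdk2 and Pdk3 had log2 ratios of -0.10, 0.055 and -0.029, none of them called.

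Cdkn1a (ENSMUSG00000023067.15) is induced by steroid hormones and, above all, by p53. As it was the called gene, the upstream window that holds a p53-type element is shown, with the pair of CATG cores of such an element (CATG, any 6 bases, CATG) in capitals. The window is chr17:29090729-29090978 on the + strand of GRCm38.p6 (RefSeq), and the match begins 48 bases before the more distal of 2 annotated starts.
Cdkn1a: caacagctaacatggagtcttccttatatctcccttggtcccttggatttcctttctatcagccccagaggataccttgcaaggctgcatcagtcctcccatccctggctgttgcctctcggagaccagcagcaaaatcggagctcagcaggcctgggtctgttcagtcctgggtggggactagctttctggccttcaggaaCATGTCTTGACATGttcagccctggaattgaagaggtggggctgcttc
This pattern, which reads the same on either strand, was in 161 of 32851 windows, 0.490%. A match is a description of letters and not evidence of binding.

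Cdkn1a levels were 7.90, 5.99, 7.84, 7.22 and 6.76 CPM in void replicates 10, 11, 4, 5 and 9. In DHT replicates 1, 2, 3, 5 and 6 they were 15.7, 10.5, 11.4, 15.1 and 11.3 CPM. Every DHT-treated mouse was above every void-treated mouse, and DHT replicates 1 and 5 were the highest. The group means were 7.14 ± 0.796 and 12.8 ± 2.38 CPM (SD, n = 5 each). Between groups, the log2 ratio was 0.84 (standard error 0.13, 95% interval 0.55 to 1.13, adjusted p = 0.00761, edgeR's quasi-likelihood test), which ranked it 83 by p among all genes. It was called in each of the 10 fits that left out 1 mouse, with log2 ratios from 0.72 to 0.90 and adjusted p values up to 0.0337. With the choroid plexus covariate the log2 ratio was 0.71, and the adjusted p was 0.560. The covariate score had no overlap between the groups, from -1.64 to 0.419 with void and from 0.600 to 1.01 with DHT. The part of the higher microglial markers in this rise was not tested.

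**Figure D2:**
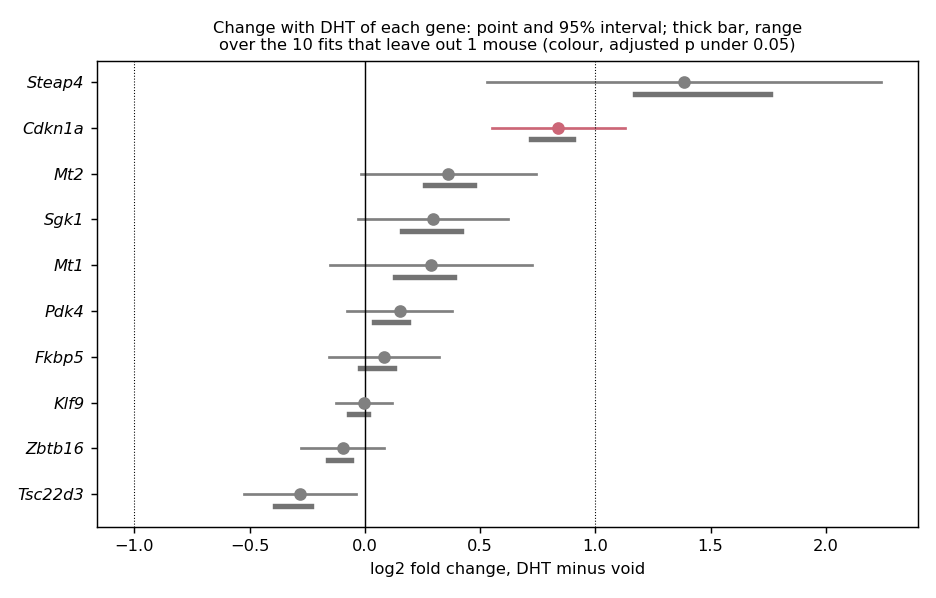
Log2 fold change (DHT minus void, x axis) of the 10 genes, ordered by size, with 95% intervals and, below each, the range over the 10 fits that left out 1 mouse; dotted lines mark log2 ratios of -1 and 1. Cdkn1a, in colour, was called at 0.84, Steap4 at 1.38 had the widest interval, and the intervals of Fkbp5, Klf9, Zbtb16, Pdk4, Sgk1, Mt1 and Mt2 include 0.

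Relatives of Cdkn1a and other p53 targets were compared with it. Cdkn1c, which encodes the related inhibitor p57 and is also glucocorticoid-induced, rose from a mean of 5.78 to 15.8 CPM, by 1.44 on the log2 scale (adjusted p = 0.0115, standard error 0.27). Its log2 ratio was 0.75 with the choroid plexus covariate (adjusted p = 0.682). Cdkn1b, the inhibitor p27, had a log2 ratio of -0.025 and was not called. Of 20 other p53 targets tested, 2 rose and 0 fell, against 5.22% of all genes called higher and 0.261% lower. The 2 were Eda2r, a cell surface receptor (log2 ratio 1.26, adjusted p = 0.0137), and Perp, a membrane protein of p53-driven cell death (1.16, adjusted p = 0.0160), both from edgeR's quasi-likelihood test. Perp was not called without void replicate 11 (adjusted p = 0.0568) or DHT replicate 1 (0.0504). With the choroid plexus covariate the log2 ratios of Eda2r and Perp were 0.79 and 0.45. DESeq2 also called Fas, a death receptor, higher (0.70, adjusted p = 0.0452), where edgeR gave 0.72 (adjusted p = 0.0966). The median log2 ratio of the 20 was 0.15. Mdm2, the p53 ubiquitin ligase, was at 49.3 CPM with void and 56.2 CPM with DHT (log2 ratio 0.19, adjusted p = 0.178).

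Mt1 (ENSMUSG00000031765.9) and Mt2 (ENSMUSG00000031762.8) encode metallothioneins, small cysteine-rich proteins that bind zinc and copper and are induced by metals through the factor MTF1 and by glucocorticoid. They are neighbours in the genome, and their promoter windows are shown since their levels moved together. The core of the metal response element, TGCACNC or TGCGCNC on either strand, is in capitals. The windows are chr8:94178839-94179088 for Mt1 and chr8:94172368-94172617 for Mt2, on the + strand of GRCm38.p6 (RefSeq).
Mt1: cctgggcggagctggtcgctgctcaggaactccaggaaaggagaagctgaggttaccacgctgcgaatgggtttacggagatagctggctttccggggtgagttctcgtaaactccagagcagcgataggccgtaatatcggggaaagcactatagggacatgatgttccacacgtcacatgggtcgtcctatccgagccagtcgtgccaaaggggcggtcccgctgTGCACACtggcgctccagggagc
Mt2: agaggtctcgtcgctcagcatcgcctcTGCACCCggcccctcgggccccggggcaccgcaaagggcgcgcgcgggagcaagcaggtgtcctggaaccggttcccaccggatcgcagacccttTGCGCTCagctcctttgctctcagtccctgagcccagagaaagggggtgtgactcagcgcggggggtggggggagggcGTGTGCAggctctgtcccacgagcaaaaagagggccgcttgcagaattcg
Mt1 had 1 match, beginning 23 bases before the start, and Mt2 had 3, at 223, 128 and 50 bases. Bases outside these windows of 250 were not searched, so the counts are not those of whole promoters. The bases just after this Mt2 start were not found in reference transcripts of the gene, while those after the Mt1 start were. Of all windows, 21.4% hold at least 1 match, so these short letters are common.

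Mt1 levels were 94.6, 68.5, 52.5, 71.8 and 92.6 CPM in void replicates 10, 11, 4, 5 and 9 and 83.8, 66.1, 73.3, 110 and 131 CPM in DHT replicates 1, 2, 3, 5 and 6. Mt2 levels were 56.7, 39.7, 35.2, 48.1 and 58.7 CPM in the same void-treated mice and 60.1, 41.7, 55.9, 72.1 and 76.7 CPM in the same DHT-treated mice. In each gene the groups overlapped, void replicate 4 was the lowest of all 10 mice and DHT replicates 6 and 5 were the highest. The log2 ratio was 0.29 for Mt1 (standard error 0.20, adjusted p = 0.538) and 0.36 for Mt2 (standard error 0.18, adjusted p = 0.319; edgeR's quasi-likelihood test). The 95% intervals were -0.15 to 0.72 and -0.019 to 0.74. Before adjustment the p values were 0.177 and 0.0605 (edgeR's quasi-likelihood test). Within groups the pooled SD of log2 CPM was 0.38 and 0.33, at percentiles 84.1 and 79.2 of all genes. Mt3, the brain metallothionein that metals hardly induce, had a log2 ratio of 0.20 (adjusted p = 0.563).

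Over all genes tested, 5.22% were called higher and 0.261% lower. Among the other 10 genes of metal and oxidant response, 2 rose and 0 fell. These were Nqo1, a quinone reductase (log2 ratio 1.07, adjusted p = 0.00761), and Hmox1, haem oxygenase (0.76, adjusted p = 0.0106; edgeR's quasi-likelihood test). Neither Mtf1, the metal sensor (0.033), nor the zinc exporter Slc30a1 (0.032) was called, and the zinc importer Slc39a10 had a log2 ratio of -0.23 (adjusted p = 0.0837). DESeq2 called Slc39a10 lower (-0.26, adjusted p = 0.0236).

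Whether the genes rise and fall together from mouse to mouse was examined with the group means removed, over 45 pairs of genes in the 10 mice. Mt1 and Mt2 were the only pair past the adjusted threshold: Pearson's r was 0.947 (exact permutation of mice within groups, two-sided, p = 0.000208, adjusted p = 0.00938) and Spearman's rho was 0.964 (p = 0.000208, adjusted p = 0.00938, same exact permutation test). The r was 0.964 in the void and 0.934 in the DHT group alone, and 0.933 without the 2 mice farthest from the median. The files do not show how reads matching several genes were counted, so sharing of reads between these similar genes was not tested. Tsc22d3 and Sgk1 had r = 0.762 (p = 0.0238, adjusted p = 0.534) and rho = 0.770 (p = 0.0213, adjusted p = 0.480; exact permutation), and r = 0.836 without the 2 farthest mice. Fkbp5 and Zbtb16 had r = 0.753 (p = 0.0951, adjusted p = 0.835) and rho = 0.552 (p = 0.107, adjusted p = 0.620; exact permutation). That relation rested on void replicate 5 and DHT replicate 2, without which r was -0.0094. The median r over the 45 pairs was 0.0657, and 29 were positive.

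**Figure D3:**
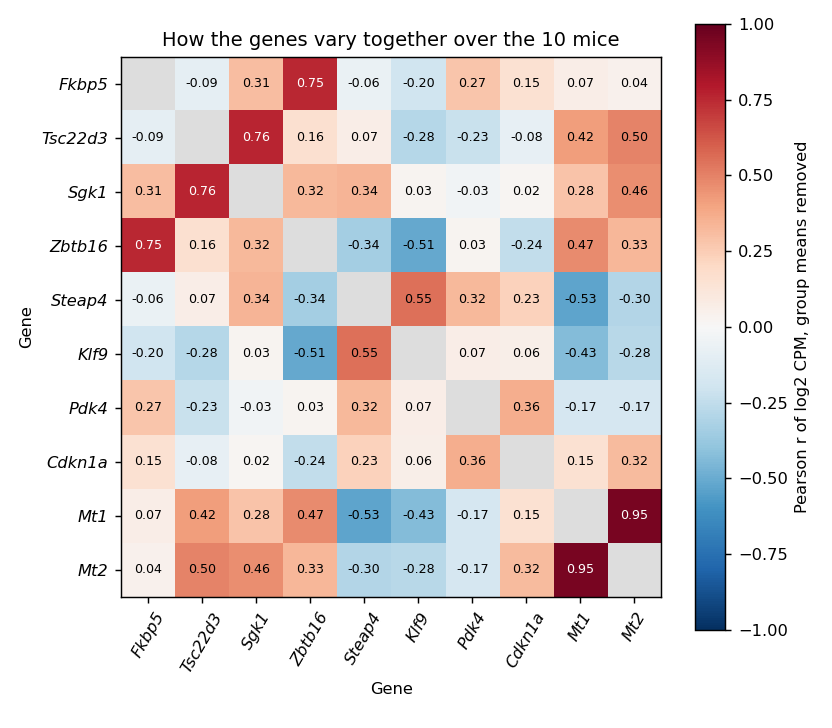
Pearson's r (colour and number, from -1 to 1) between log2 CPM of each pair of the 10 genes over the 10 mice, after the group means were removed. Mt1 with Mt2 has the highest r, 0.947, and Fkbp5 with Tsc22d3 has -0.0916.

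Receptors that read these hormones were measured in the same libraries. Nr3c1, the glucocorticoid receptor, had a log2 ratio of -0.12 and Nr3c2, the mineralocorticoid receptor, 0.013. For Pgr (progesterone receptor), Esr1 and Esr2 (oestrogen receptors) the values were -0.27, -0.27 and -0.45. None of these 5 was called by edgeR's quasi-likelihood test, with adjusted p values from 0.210 to 0.970. The sign for Nr3c2 was negative with upper quartile scaling and with DESeq2's size factors.

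Of 9 genes for chaperones and glucocorticoid activation, 1 was called, against 5.48% of all genes tested. Hsd11b1, the enzyme that regenerates active glucocorticoid inside cells, had 20.4 to 24.5 CPM with void and 24.3 to 33.3 CPM with DHT. It rose by 0.35 on the log2 scale (edgeR's quasi-likelihood test, adjusted p = 0.0423, standard error 0.090). When 1 mouse was left out, it was called only without DHT replicate 6, and in the other 9 fits its adjusted p ranged from 0.0551 to 0.183. The call was also lost with DESeq2's size factors in edgeR (0.0746), with upper quartile scaling (0.0747) and without the filter on low counts (0.0590). The chaperones Hsp90aa1, Hsp90ab1, Hspa8, Stip1, Ptges3, Fkbp4, St13 and Bag1, which hold or recycle unliganded receptors, had log2 ratios between -0.095 and 0.015. The signs for St13 and Bag1 turned when single mice were left out, and that for Bag1 also with other scalings.

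Wider lists of hormone targets were counted in the same fit, where 5.22% of all genes were called higher and 0.261% lower. Of 35 further genes known to rise with glucocorticoid, 1 rose, Cdkn1c (described above), and 0 fell. The list's median log2 ratio was 0.033. Txnip, an inhibitor of thioredoxin and glucose uptake, came next by p, with a log2 ratio of 0.31 (adjusted p = 0.125), and was called without void replicate 5 (0.40, adjusted p = 0.0343). Of 75 genes known to rise with androgen in prostate cells, 9 rose and 0 fell, with a median of 0.012 over the list. The lowest p values belonged to Stk39, a kinase of ion cotransporters (log2 ratio 0.54, adjusted p = 0.00761), and Dbi, a binding protein of acyl-CoA (0.38, adjusted p = 0.0115). Next came Tnfaip8 (0.78), Abcc4, an efflux pump (0.58), and Krt8, an epithelial keratin (2.29, from 1.17 to 5.83 CPM). With the choroid plexus covariate the log2 ratios of Stk39, Dbi, Tnfaip8, Abcc4 and Krt8 were 0.31, 0.27, 0.43, 0.53 and 0.41. The call of Krt8 was lost in 4 of the 10 fits that left out 1 mouse. The count of 9 fell to 1 without void replicate 11, to 4 without void replicate 10, void replicate 4 or DHT replicate 1, and to 5 without DHT replicate 3 or DHT replicate 5. Hmgcs1, a sterol synthesis enzyme of the same list with a log2 ratio of -0.24 (adjusted p = 0.106), was called lower without DHT replicate 3 (-0.32, adjusted p = 0.0417) and with DESeq2 (-0.27, adjusted p = 0.0294). Of the named prostate targets, Tmprss2, Spdef and Krt19 had too few counts to be tested, at most 10 per library.

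The counts in this paragraph stand against 5.22% of all genes tested called higher and 0.261% called lower. Of 15 genes of fatty acid use that PPAR and FOXO factors turn on along with Pdk4, 4 rose and 0 fell. They were Ucp2, a mitochondrial carrier (log2 ratio 1.27, adjusted p = 0.00761), Cpt1a and Cpt2, which bring fatty acids into mitochondria (0.54 and 0.75), and Plin2, a lipid droplet coat protein (0.45). Plin2 had an adjusted p of 0.0300, and its call was lost in 8 of the 10 fits that left out 1 mouse (0.0517 to 0.111) and without the filter on low counts (0.0585). The count was 2 without void replicate 10, void replicate 11, void replicate 4 or DHT replicate 1. Of 22 relatives of the 10 genes by family, 4 rose and 0 fell: Steap2 and Cdkn1c (above), and Sgk3 and Sgk2, kinases related to Sgk1, by 0.75 and 0.48 on the log2 scale. For Sgk3, levels were 14.8 CPM with void and 24.9 CPM with DHT (adjusted p = 0.0213, edgeR's quasi-likelihood test). Sgk2 had an adjusted p of 0.0425, and its call was lost in 9 of the 10 fits that left out 1 mouse (0.0549 to 0.140, all but that without DHT replicate 2). It was also lost with DESeq2's size factors in edgeR (0.0549), with upper quartile scaling (0.0555) and without the filter on low counts (0.180). The count of relatives was 2 without void replicate 10, void replicate 11, DHT replicate 1 or DHT replicate 3. With the choroid plexus covariate, 0 genes of any of these lists were called. The covariate score had no overlap between the groups, so treatment and choroid plexus RNA are hard to tell apart in that fit. Its count over all genes is not given here, so the 0 cannot be read as particular to these lists.

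**Figure D4:**
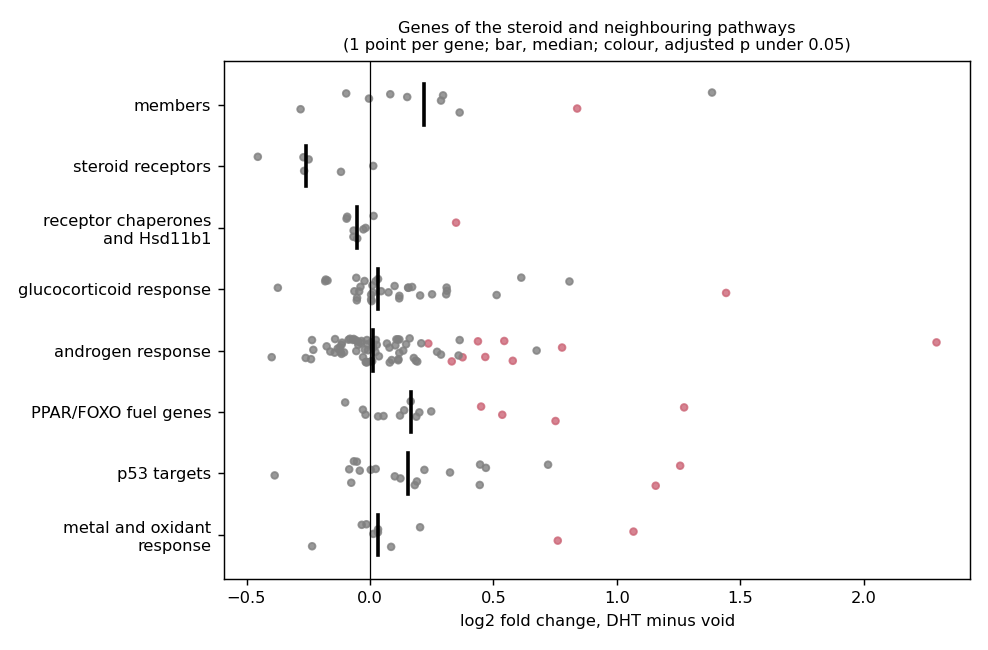
Log2 fold change (DHT minus void, x axis) of each tested gene in the 10 members and 7 further lists, 1 point per gene with the list's median as a bar and genes with an adjusted p under 0.05 in colour. Called genes lie to the right of 0 in each list, the steroid receptors have none, and the medians of the glucocorticoid and androgen lists are 0.033 and 0.012.

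For each of the 10 genes, the gene with the most similar pattern was sought by the mean absolute difference of z-scored log2 CPM over the 10 mice. Cdkn1a was nearest to Nckap1l (0.189 SD), which had a log2 ratio of 0.70 (adjusted p = 0.00965, edgeR's quasi-likelihood test). Steap4 was nearest to Rdh10 (0.195 SD), with a log2 ratio of 0.42 (adjusted p = 0.0324). Among the other genes, the nearest were Pkp2 for Fkbp5, Gm45694 for Tsc22d3, Tmc3 for Sgk1, Ccdc84 for Klf9, Anapc13 for Pdk4, Crlf2 for Mt1 and Cnppd1 for Mt2, at 0.170 to 0.277 SD, and none of these was called. The search ran over all 17622 genes tested, so these genes were picked for their nearness and it was not tested.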

How the data were processed

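RNA-seq was analysed from the hippocampus of 10 female mice, grouped by the implant given in the sample labels. The authors trimmed and filtered reads with HTStream, aligned them with STAR 2.7.10b and deposited raw counts per gene. The paper names mm10 and the submitters' processing notes name GRCm39 (mm39). Annotation release, strand setting and handling of reads that match several genes are not given in the sources used here. Symbols came from a gene name table (51948 of 56884 identifiers matched) and promoter sequences from RefSeq on GRCm38.p6.

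The test was edgeR's quasi-likelihood F test (version 4.0.16, R 4.3.3) with TMM factors and its filter by group, adjusted by Benjamini-Hochberg over 17622 genes. A standard error is the size of the log2 ratio divided by the root of F. Log2 CPM used a prior count of 2. DESeq2 1.42.0, the study's tool, other scalings and filters, each mouse left out in turn and a covariate of 12 choroid plexus markers were the alternatives. The tests were checked on simulated data with 200 changed genes. Of the genes called there at an adjusted p under 0.05, 5.98% were false with edgeR and 18.8% with DESeq2. Those counts were drawn in a single run, with edgeR's own estimates of spread and 200 of 17624 genes changed. In the mice edgeR called 966 genes, so the false shares there may differ. Calls made by DESeq2 only are to be read with the simulated shares and this limit in mind.

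The members, lists, tests and alternatives were chosen with earlier results of these data known. The genes named are the 10 members, the receptors and chaperones, relatives by family, up to 4 called genes per list or its 2 lowest p values, and the nearest pattern of each member. Krt8, Hmgcs1, Fas, Mtf1, Slc30a1, Mdm2, Tmprss2, Spdef, Krt19 and the markers Prox1, Neurod6 and Camk2a were added after their values were seen, and the promoter motifs after the windows were read. Some genes that this rule names are not reported here.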

Additional observations from a re-analysis of the deposited data

Results flagged for a closer look

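Single mice stood apart from their group in 2 of the 20 groups of 5 mice examined (10 genes in 2 groups), by a gap to the nearest mouse of more than 0.71 of the group's range. Chance gives about 1 in 20. Void replicate 5 was the lowest of the void-treated mice for Fkbp5, with a ratio of 0.840, and DHT replicate 6 was the highest of the DHT-treated mice for Zbtb16, with a ratio of 0.763.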

How the results depend on the processing

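No paired analysis was run because the sample labels name no pairs or litters. Void and DHT libraries have a single replicate number, 5, in common, and the labels do not say that a shared number marks a pair. The number of the 10 genes with an adjusted p under 0.05 was 2 with DESeq2 and 2 without the filter on low counts, where 1 also passed both limits, Steap4 each time. With the choroid plexus covariate it was 0, and the count over all genes in that fit is not given here. Over the fits that left out 1 mouse, the number ranged from 1 to 2 at the adjusted p and from 0 to 1 past both limits, the higher values without void replicate 4. Steap4 had fewer than 10 counts in some libraries and was not tested under the strict filter. The other scalings and the strict filter left the count at 1, Cdkn1a.

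With the covariate the log2 ratios were -0.16 for Fkbp5, -0.12 for Sgk1, 0.041 for Klf9, -0.090 for Pdk4, -0.10 for Nr3c2, 0.030 for Esr2, 0.00717 for Hsp90aa1 and -0.32 for Steap1. With library size alone Klf9 was at 0.0065. With DESeq2, edgeR on DESeq2's size factors and upper quartile scaling, Nr3c2 was at -0.014, -0.014 and -0.00805, and Bag1 at -0.012, -0.012 and -0.00690. With 1 mouse left out, log2 ratios ranged from -0.022 to 0.12 for Fkbp5, -0.068 to 0.015 for Klf9, -0.066 to 0.039 for Nr3c2, -0.057 to 0.022 for St13 and -0.040 to 0.064 for Bag1. The cause was not tested. Of 22 genes called in the pathway lists, 22 were also called with DESeq2 (which added Fas, Hmgcs1 and Slc39a10 among the named genes), 18 with upper quartile scaling, 0 with the covariate, and between 8 (without void replicate 11) and 21 with 1 mouse left out. All 22 kept a positive sign in each of these fits. The 1 pair of genes past the threshold and the 1 gene without overlap were found under library size alone as well. Depth limits Steap4 most, with as few as 7 counts in a library.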

Other observations

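Genes that depend on the time of day and on recent neuronal activity, which also respond to glucocorticoid, showed no called difference. Over all genes tested, 5.48% were called and 17.4% had an unadjusted p under 0.05. Of 14 clock genes tested, 0 were called by edgeR's quasi-likelihood test and 2 had an unadjusted p under 0.05, Hlf (log2 ratio -0.30, adjusted p = 0.0775) and Tef (-0.17, adjusted p = 0.159). Of 10 immediate early genes, 0 were called and 0 had an unadjusted p under 0.05, and all 10 had negative log2 ratios, with a median of -0.34. Their summed level ranged from 224 to 700 CPM with void and from 272 to 524 CPM with DHT.

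Among the other cell type lists, the counts called higher were 1 of 9 astrocyte genes (Gfap, log2 ratio 1.18, adjusted p = 0.00761), 1 of 10 meningeal genes (Igf2, 1.68, adjusted p = 0.00931), and 0 of 9 oligodendrocyte, 0 of 9 endothelial, 0 of 8 pericyte and 0 of 8 neuron genes. None of these lists had a gene called lower, and over all genes 5.22% were called higher and 0.261% lower. Of 5 red cell genes, 1 was tested and not called.

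Void replicate 5, chosen here after its values were seen, was the lowest of the void-treated mice for Fkbp5 (43.2 CPM), Zbtb16 (71.6 CPM) and Nr3c2 (218 CPM) and the highest for Klf9 (282 CPM). Its total count of 31002573 lay within the range of the other void-treated mice.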
